A study of Arabidopsis thaliana with 36 samples.

Results

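UGT84A1 is a UDP-glucosyltransferase of Arabidopsis thaliana, encoded by locus AT4G15480. It was 1 gene of the 13286 loci that the array's annotation names through a probe set of a single gene, and it was read by 1 probe set, 245560_at. The gene was chosen from these same arrays for its pattern across lines and days, so its levels and differences are given as a description and carry no test.

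UGT84A1 attaches glucose to hydroxycinnamic acids such as p-coumaric, caffeic, ferulic and sinapic acid through an ester bond. The resulting glucose esters are energy-rich. In Brassicaceae, acyltransferases of the serine carboxypeptidase-like type use sinapoylglucose to make sinapoylmalate, a sunscreen of leaves, and sinapoylcholine, a reserve of seeds. The close relatives UGT84A2, UGT84A3 and UGT84A4 belong to the same branch of the family, and UGT84A2 is the member best known for sinapoylglucose in leaves.

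Apical regions of soil-grown plants were profiled with 36 ATH1 arrays, 3 for each of 12 groups. FRI carries the Sf-2 allele of FRIGIDA, an activator of the floral repressor FLC, in the Col background. FRI flc-3 carries that FRI allele together with flc-3, a fast-neutron allele of FLC, and flc-3 carries the FLC mutation without the Sf-2 allele. Each line was moved from short days to long days and sampled after 0, 3, 5 and 7 long days. All lines thus share the Col background and the same change of day length, and both lines other than FRI share the flc-3 mutation. Each genotype is 1 line, and no group kept in short days was used here, so the time in long days and the added age of the plants cannot be told apart. The labels give every FRI array as vegetative, FRI flc-3 as in transition to flowering from day 3 on, and flc-3 as in transition at days 3 and 5 and on 1 of the 3 arrays of day 7. FLC and FRI are not named in the annotation used, and their own signals are not reported here.

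The values were MAS5 signals, which are linear probe set intensities in arbitrary units. The median signal per array lay between 40.4 and 43.1, and arrays of 1 group correlated at 0.979 or more over the probe sets tested. The number of arrays limits the precision. The apical region is a mixed tissue, and fewer cells of a type and less RNA per cell cannot be told apart. Nothing in the labels tells whether the replicates of a group are different pools of plants, so every p-value below measures the spread between these samples only.

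UGT84A1 had a very low signal in the FRI line throughout the series. Its 12 FRI arrays had a mean of 2.96 ± 2.41 (SD), with a lowest value of 0.885 and a highest of 8.91. In both lines that lack a functional FLC its signal was also low at day 0, and its mean was higher at each later day. By day 7 the mean was 53.5 ± 12.0 in FRI flc-3, with 65.4 ± 11.6 in flc-3 (SD, n = 3 each), against 3.28 ± 2.44 in FRI.

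In FRI the UGT84A1 signals were 1.01, 0.885 and 3.24 at day 0, then 1.85, 2.43 and 4.29 at day 3. They were 0.887, 2.21 and 8.91 at day 5, then 2.30, 1.47 and 6.05 at day 7. The arrays of all 4 days overlapped, and replicate 3 was the highest of its group on each day, as it also was on each day in FRI flc-3. In flc-3 this held at day 3 alone.

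In FRI flc-3 the UGT84A1 signals were 3.58, 0.975 and 5.68 at day 0, then 6.15, 8.94 and 13.4 at day 3. They were 10.5, 19.6 and 22.3 at day 5, then 59.8, 39.7 and 60.9 at day 7. Days 0 and 3 did not overlap, days 3 and 5 did, and the 3 arrays of day 7 lay above every array of the earlier days.

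In flc-3 the UGT84A1 signals were 1.30, 1.08 and 0.858 at day 0, then 9.74, 10.4 and 13.6 at day 3. They were 34.0, 25.4 and 20.0 at day 5, then 52.1, 73.2 and 70.8 at day 7. No 2 days overlapped in this line, which also had the tightest day 0 group, at 1.08 ± 0.22 (SD, n = 3). On day 7 the array labelled as in transition had 52.1, and the 2 arrays labelled vegetative had 70.8 and 73.2. Within this group the arrays labelled vegetative thus had the higher signals, whereas the vegetative arrays of day 0 had the lowest signals of this line.

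**Figure D1:**
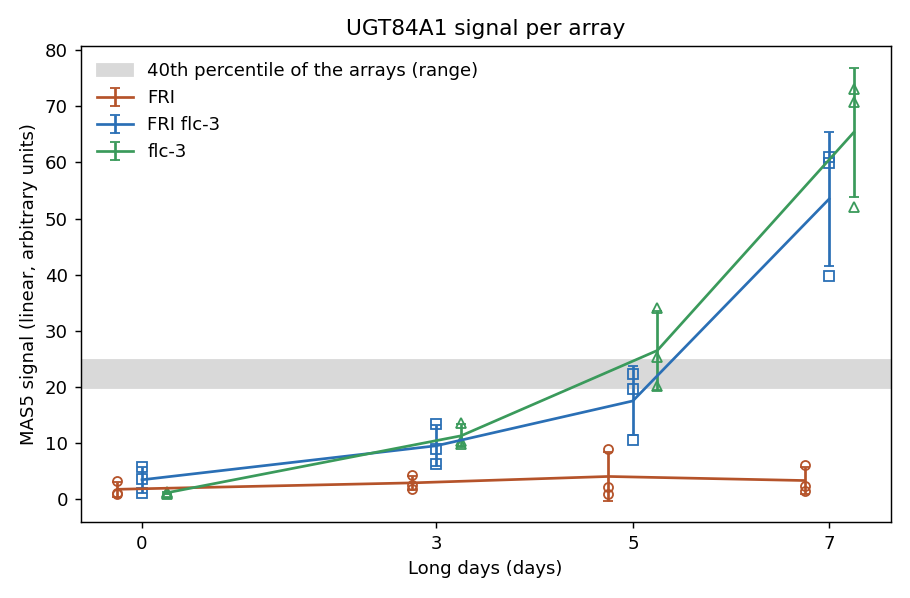
UGT84A1 signal (MAS5, linear, arbitrary units) against long days, with open symbols for arrays and lines with bars for the mean and SD of 3 arrays. The grey band is the range of the arrays' 40th percentiles, 19.8 to 24.8. All FRI arrays lie at or below 8.91, and the day 7 arrays of FRI flc-3 and flc-3 lie between 39.7 and 73.2.

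The level of a probe set within its array shows how dim UGT84A1 was in FRI. It stood between percentile 4.25 and percentile 25.7 of all probe sets on the FRI arrays. On the day 7 arrays it stood between 49.7 and 57.9 in FRI flc-3 and between 53.5 and 61.2 in flc-3, near the middle of each array. The flc-3 arrays of day 0 had it between 4.48 and 7.94, as low as FRI.

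UGT84A1 exceeded its array's 40th percentile, the level used below as a filter, on 8 of the 36 arrays. These were all 3 day 7 arrays of FRI flc-3, all 3 day 7 arrays of flc-3 and 2 of the 3 day 5 arrays of flc-3. None of the 12 FRI arrays reached it. UGT84A1 therefore entered the fit only through the groups in which it was high. No detection call was used here, and whether the FRI signals differ from the array's background is not known.

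Ordered by mean, the 12 groups formed a low end of flc-3 at day 0, FRI at days 0, 3 and 7, FRI flc-3 at day 0 and FRI at day 5. These 6 means ran from 1.08 to 4.00. FRI flc-3 and flc-3 at day 3 came next with 9.48 ± 3.64 and 11.3 ± 2.07, followed by the same lines at day 5 with 17.5 ± 6.16 and 26.5 ± 7.03 (SD, n = 3). The day 7 groups of these lines closed the order. Only 1 pair of neighbours in it had arrays that did not overlap, flc-3 at day 5 and FRI flc-3 at day 7, whose means differed by 27.0 with a pooled SD of 9.81.

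The difference between FRI and FRI flc-3 concerns the FLC gene in the presence of the Sf-2 allele. At day 0 the UGT84A1 arrays of these lines overlapped. From day 3 on every FRI flc-3 array lay above every FRI array of the same day. No fold over FRI is given, since the FRI signals lie near the bottom of the scale. Set against the mean 40th percentile of the FRI arrays of day 7, which was 23.3, the day 7 mean of UGT84A1 was 2.29 times that level in FRI flc-3, 2.80 times in flc-3 and 0.14 times in FRI.

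On the scale of log2(signal + 1.62), UGT84A1 in FRI differed from FRI flc-3 by −0.54 at day 0, −1.30 at day 3, −1.98 at day 5 and −3.58 at day 7, each with an SE of 0.42. The gap thus became wider at each day sampled. Averaged over the 4 days it was −1.85 ± 0.21 (SE, 12 arrays against 12). With an offset of 16 in place of 1.62 the average was −0.79 ± 0.08, because a larger offset shrinks differences between dim signals. FRI differed from flc-3 by −1.94 ± 0.21 on the same scale with the offset of 1.62.

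The lines FRI flc-3 and flc-3 differ in the Sf-2 allele of FRI, in the absence of a functional FLC. Their UGT84A1 signals differed little: the mean over the 4 days was −0.09 ± 0.21 (SE) for FRI flc-3 relative to flc-3. By day the difference was 0.78, −0.25, −0.59 and −0.29 at days 0, 3, 5 and 7, with an SE of 0.42. The arrays of these lines overlapped on days 0, 3, 5 and 7, and the ratio of the day 7 means, flc-3 over FRI flc-3, was 1.22. These comparisons share arrays, because each line enters more than 1 of the line comparisons and the day 0 arrays of a line are used for all its changes.

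The change of UGT84A1 from day 0 to day 7 was 0.51 ± 0.42 in FRI. It was 3.55 ± 0.42 in FRI flc-3 and reached 4.62 ± 0.42 in flc-3 (log2 scale, SE, 3 arrays against 3). With an offset of 16 the changes were 0.12, 1.83 and 2.24 in the same order. Leaving out 1 array moved the FRI value to between 0.13 and 0.82. In FRI the change was smaller than the pooled SD between replicates of this gene, 0.54. In FRI flc-3 the steps between successive days were 1.21, 0.78 and 1.56, and in flc-3 they were 2.25, 1.11 and 1.27. The order of the steps in flc-3 depended on the offset, since its day 0 signals were near 1: with an offset of 16 they were 0.67, 0.63 and 0.94. In FRI flc-3 the last step was the largest with either offset. In FRI the steps were 0.46, 0.09 and −0.04.

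The day 7 response of UGT84A1 in FRI, less that in FRI flc-3, was −3.04 ± 0.60 on the log2 scale (SE). Between FRI flc-3 and flc-3 the responses differed by −1.07 ± 0.60 (SE). The latter value follows the day 0 signals closely: the day 0 arrays of FRI flc-3 had 0.975 to 5.68 and those of flc-3 had 0.858 to 1.30. With the offset of 16 it was −0.41 ± 0.22, and the response difference between FRI and FRI flc-3 was −1.71 ± 0.22.

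UGT84A1 lies next to UGT84A3 and UGT84A4 in the gene order of the TAIR10.1 annotation, in a tandem group on the fourth chromosome. No genome build is stated for the array values, and no coordinates are given. The sequences of the array's probes were not analysed here, so how far the probe set of UGT84A1 would also bind transcripts of its relatives was not tested. UGT84A3 (245352_at) and UGT84A4 (245561_at) each have a probe set of their own with the array's plain suffix for a single target. Levels of different probe sets are not compared.

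UGT84A3, which also glucosylates hydroxycinnamic acids, had a pattern that partly resembled that of UGT84A1. In FRI its signals were 12.7, 12.8 and 13.2 at day 0, then 10.2, 13.5 and 16.0 at day 7. In FRI flc-3 they were 14.4, 13.8 and 11.3 at day 0, then 39.5, 36.4 and 35.5 at day 7, and in flc-3 they were 15.4, 17.7 and 18.3 at day 0, then 31.9, 35.8 and 29.9 at day 7. The day 7 arrays of both lines with flc-3 lay above all of their day 0 arrays, and the FRI arrays of these days overlapped.

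The early samples of UGT84A3 overlapped where those of UGT84A1 did not. Its day 3 signals were 13.1, 15.6 and 17.2 in FRI flc-3 and 17.0, 10.6 and 15.6 in flc-3, which overlapped day 0 in both lines. For UGT84A1 every day 3 array of these lines lay above its day 0 arrays. Neither gene exceeded the filter level on any day 3 array, and a difference in timing was not tested. At day 5 UGT84A3 had 30.7, 28.0 and 27.6 in FRI flc-3 and 23.3, 20.6 and 17.1 in flc-3.

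UGT84A3 was lower in FRI than in FRI flc-3 by −0.78 ± 0.09 on the log2 scale (SE, adjusted p = 3.9e-08, limma). From day 0 to day 7 it rose by 1.40 ± 0.19 in FRI flc-3 (adjusted p = 1.9e-07) and by 0.86 ± 0.19 in flc-3 (adjusted p = 2.8e-04). In FRI the value was 0.02 ± 0.19 (adjusted p = 0.962). The response in FRI fell short of that in FRI flc-3, with a difference of −1.38 ± 0.27 (adjusted p = 2.7e-04). Between FRI flc-3 and flc-3 the difference was 0.10 (adjusted p = 0.625) for the mean over days and 0.53 (adjusted p = 0.303) for the response. UGT84A3 exceeded the filter level on 10 arrays, 3 of FRI flc-3 at day 5, 1 of flc-3 at day 5 and all 6 of these lines at day 7, so like UGT84A1 it entered the fit only where it was high. With no filter its adjusted p was 1.5e-07 between FRI and FRI flc-3 and 5.9e-04 for the difference of responses. With an offset of 16 its sizes were smaller: −0.45 between FRI and FRI flc-3, 0.87 and 0.55 for the day 7 change in FRI flc-3 and flc-3, and −0.85 for the difference of responses.

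UGT84A4, the third gene of the tandem group, did not follow UGT84A1. Its mean signals were 25.8, 25.1, 30.7 and 28.7 in FRI at days 0, 3, 5 and 7. In FRI flc-3 they were 19.3, 24.6, 25.7 and 17.4, and in flc-3 they were 22.7, 22.6, 22.9 and 17.7. FRI had the highest mean on each day. UGT84A4 was higher in FRI than in FRI flc-3 by 0.33 ± 0.10 on the log2 scale (SE, adjusted p = 0.012; 0.21 with an offset of 16), opposite in sign to UGT84A1 and UGT84A3, and it was called in no other comparison. UGT84A4 was itself dim: it exceeded the filter level on 20 of the 36 arrays, and on no FRI flc-3 array of day 0 or day 7. Over the 36 arrays the log2 signals of UGT84A1 had a Pearson r of 0.78 with UGT84A3 and of −0.48 with UGT84A4.

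**Figure D2:**
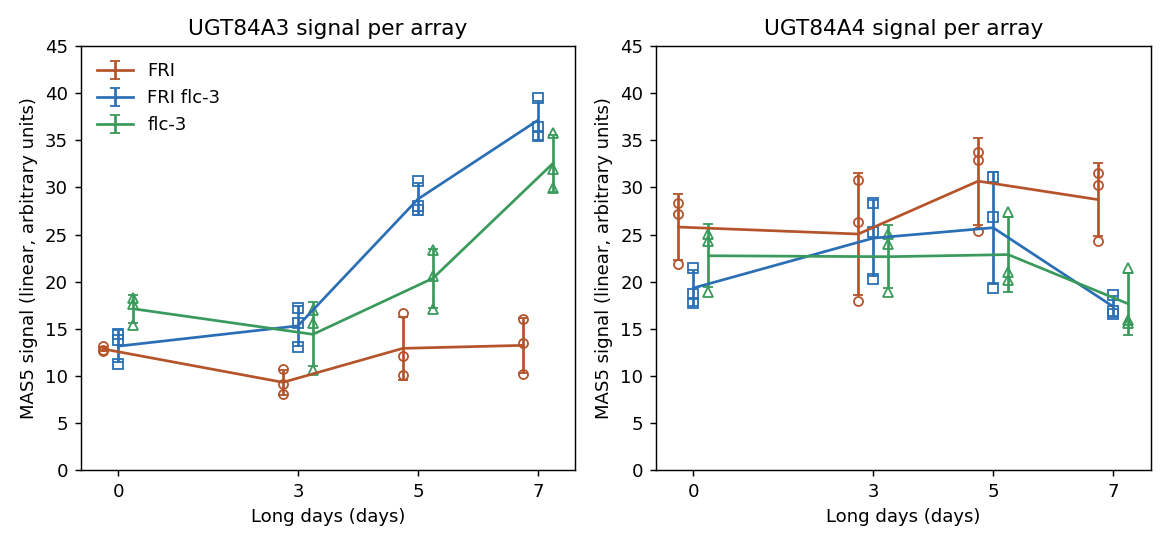
Signals of UGT84A3 (left) and UGT84A4 (right) against long days (MAS5, linear, arbitrary units), with symbols for arrays and lines with bars for the mean and SD of 3 arrays. UGT84A3 reaches 29.9 to 39.5 at day 7 in FRI flc-3 and flc-3 and 10.2 to 16.0 in FRI, and UGT84A4 has its highest mean in FRI on each day.

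The genes around UGT84A1 were followed in gene order. Of the 20 gene models nearest to it, 10 on each side, 10 had a named probe set and 8 were tested. Of these 8, 1 had a day 7 response called different between FRI and FRI flc-3, and it was UGT84A3. Among all probe sets tested 12.7% were called, 6.41% with a positive and 6.28% with a negative difference. In this contrast the count of neighbours is thus near the share of all probe sets. For the mean over days, 2 of the 8 were higher and 1 lower in FRI than in FRI flc-3, against 11.1% and 10.1%. Between FRI flc-3 and flc-3, 1 was higher and 1 lower, against 1.94% and 2.29%. The lower one, AT4G15545, lost its call with no filter (adjusted p = 0.051) and under quantile normalization (adjusted p = 0.089), among other settings. AT4G15430 rose from day 0 to day 7 in all 3 lines, by 0.63 ± 0.15 in FRI (log2 scale, SE, adjusted p = 0.0018), by 0.68 ± 0.15 in FRI flc-3 (adjusted p = 3.8e-04) and by 0.91 ± 0.15 in flc-3 (adjusted p = 6.2e-06). UGT84A1 had 0.51, 3.55 and 4.62 in the same lines.

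**Figure D3:**
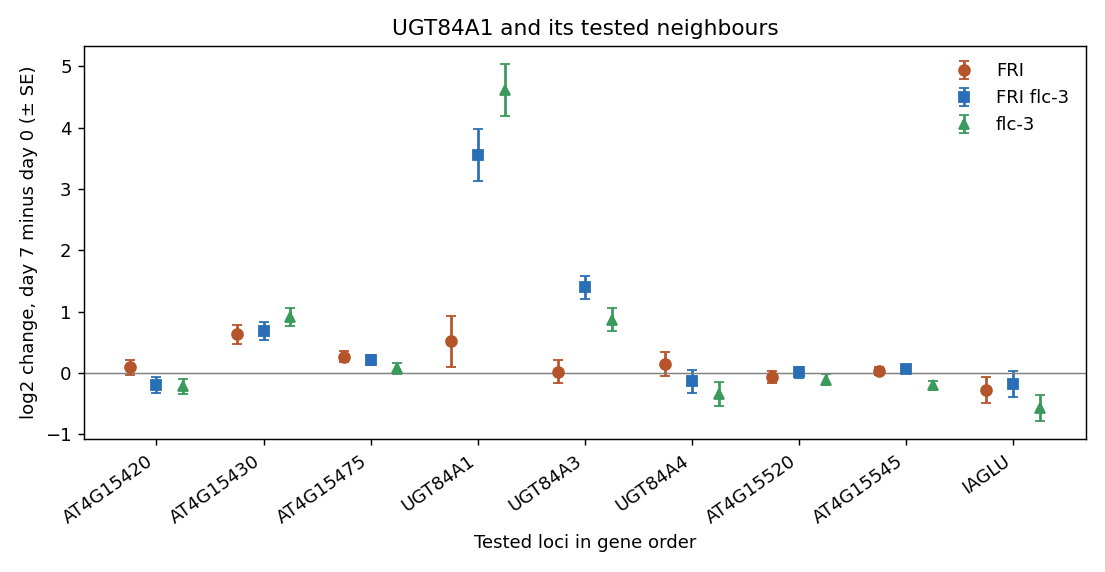
Change from day 0 to day 7 on the scale of log2(signal + 1.62) for UGT84A1 and its 8 tested neighbours in gene order, with 1 symbol per line and bars for the SE. UGT84A1 has 3.55 and 4.62 in FRI flc-3 and flc-3, UGT84A3 has 1.40 and 0.86, and the remaining neighbours lie between −1 and 1 in all 3 lines.

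The genes that make or use the substrates of UGT84A1 could be followed only in part. Of 19 further genes of sinapate and hydroxycinnamate esters and conjugates, 9 had a named probe set and 5 passed the filter. UGT84A2, the malate acyltransferase SNG1 and the ferulate hydroxylase FAH1 are not named in the annotation used. The spermidine acyltransferases SDT, SCT and SHT and the glucosyltransferase UGT72E3 were too dim to be tested.

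Of these 5 genes, 2 were higher and 1 was lower in FRI than in FRI flc-3, where 21.2% of all probe sets were called, 11.1% as higher and 10.1% as lower. UGT84A3 was the lower one, as was UGT84A1 by its signals. UGT72E1, a glucosyltransferase of hydroxycinnamaldehydes, was higher by 0.38 ± 0.13 on the log2 scale (adjusted p = 0.032), or 0.21 with an offset of 16. That call was lost under quantile normalization (adjusted p = 0.11), with no filter (adjusted p = 0.052) and without any 1 of 10 arrays, with adjusted p between 0.052 and 0.076. These were FRI replicate 3 of day 0, replicate 2 of day 3, replicates 1 and 3 of day 5 and replicate 1 of day 7, and FRI flc-3 replicate 1 of days 0 and 3, replicate 3 of day 5 and replicates 2 and 3 of day 7. UGT84A4 was the other gene that was higher. REF1, an aldehyde dehydrogenase that forms ferulic and sinapic acid, the substrates of UGT84A1, differed by 0.10 ± 0.04 (adjusted p = 0.055). REF1 was called under quantile normalization (adjusted p = 0.038), a common 75th percentile (adjusted p = 0.040) and the filter at the 60th percentile (adjusted p = 0.0498). It was also called without any 1 of FRI replicate 2 or 3 of day 5, FRI replicate 2 of day 7, FRI flc-3 replicate 2 of day 0 and FRI flc-3 replicate 1 of day 7 (adjusted p of 0.0054 to 0.046).

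From day 0 to day 7, 1 of these 5 genes was called lower in FRI, where 26.0% of all probe sets were called, 13.9% as higher and 12.1% as lower. It was UGT72E1, with −0.77 ± 0.26 (adjusted p = 0.025), and its call was lost without FRI replicate 1 of day 0 (adjusted p = 0.052), replicate 3 of day 0 (adjusted p = 0.10) or replicate 2 of day 7 (adjusted p = 0.17). In FRI flc-3, 1 was higher and 2 were lower, against 41.0% of all probe sets called, 21.3% as higher and 19.7% as lower. In flc-3, 1 was higher and 3 were lower, against 46.2% called, 25.3% as higher and 20.9% as lower. The gene that was higher was UGT84A3 in both lines, and those that were lower were REF1 and UGT72E1, with UGT72E2 in flc-3. REF1 fell by 0.28 ± 0.08 in FRI flc-3 (adjusted p = 0.0031) and by 0.31 ± 0.08 in flc-3 (adjusted p = 0.001). Without replicate 2 of FRI flc-3 at day 0, the value of REF1 in that line was −0.17 (adjusted p = 0.073). UGT72E2, a monolignol glucosyltransferase, fell by 0.91 ± 0.23 in flc-3 (adjusted p = 0.0013). UGT72E1 fell by 1.28 ± 0.26 in flc-3 (adjusted p = 1.0e-04). In FRI flc-3 it had −0.64 ± 0.26 (adjusted p = 0.043), a call lost under quantile normalization (adjusted p = 0.22), with no filter (adjusted p = 0.068) and without FRI flc-3 replicate 2 or 3 of day 0 or replicate 2 or 3 of day 7 (adjusted p of 0.13 to 0.17). With an offset of 16 the change of UGT72E2 in flc-3 was −0.54, and those of UGT72E1 in FRI, FRI flc-3 and flc-3 were −0.45, −0.32 and −0.68. The signals of UGT84A1 went the other way from REF1, UGT72E1 and UGT72E2 in flc-3.

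HCT, a shikimate acyltransferase between p-coumaric and caffeic acid units, was the 1 gene tested of 23 in the general phenylpropanoid pathway and monolignol synthesis. It was higher in FRI than in FRI flc-3 by 0.22 ± 0.03 on the log2 scale (adjusted p = 1.4e-06) and was called in no other comparison, opposite in sign to UGT84A1. None of 23 regulators of phenylpropanoid genes is named in the annotation used.

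Flavonoid and anthocyanin genes use the same p-coumaric units as UGT84A1. Of 14 such genes 7 had a named probe set and 6 passed the filter, and the day 7 response of all 6 differed between FRI and FRI flc-3, 4 with a positive and 2 with a negative difference, against 12.7% of all probe sets called. DFR, the dihydroflavonol reductase of anthocyanin synthesis, had mean signals of 445.2 at day 0 and 455.1 at day 7 in FRI, 353 and 91.3 for FRI flc-3, and 554.8 and 114 for flc-3. UGT84A1 moved in the opposite sense in FRI flc-3 and flc-3. In FRI the day 7 change was 0.03 ± 0.07 for DFR and 0.51 ± 0.42 for UGT84A1 (log2 scale, SE). The difference of the DFR responses was 1.96 ± 0.10 (SE, adjusted p = 8.8e-17), that of the anthocyanin xylosyltransferase UF3GT was 1.88 ± 0.15 (adjusted p = 1.4e-11) and that of the anthocyanin glucosyltransferase UGT75C1 was 1.55 ± 0.11 (adjusted p = 5.2e-13). The flavonol rhamnosyltransferases UGT89C1 and UGT78D1 had differences of −0.52 ± 0.09 (adjusted p = 3.9e-05) and −0.40 ± 0.11 (adjusted p = 0.017), of the same sign as UGT84A1.

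Among genes with a UGT symbol, 47 had a named probe set and 24 passed the filter, UGT84A1 among them. Of the other 23, 5 were higher and 3 lower in FRI than in FRI flc-3, against 11.1% and 10.1% of all probe sets. The day 7 response differed between these lines for 8 of the 23, with 3 positive and 5 negative differences, against 6.41% and 6.28% of all probe sets. UGT71C3, a methyl salicylate glucosyltransferase, was the nearest to UGT84A1 and UGT84A3 in size among the genes called negative. It had mean signals of 17.7 at day 0 and 23.8 at day 7 in FRI, 16.9 and 53.2 for FRI flc-3, and 14.6 and 53.3 for flc-3. The difference of its responses was −1.17 ± 0.30 (adjusted p = 0.0065), or −0.83 with an offset of 16. UGT71C3 exceeded the filter level on all 3 day 7 arrays of each line with flc-3 and on 1 of the 3 day 7 arrays of FRI. It exceeded that level on no day 0 array of any line. At day 3 it did so on 1 of 3 arrays in each line. At day 5 it did so on all 3 arrays of flc-3, 2 of FRI flc-3 and none of FRI. The FRI arrays alone thus fell short of the 3 arrays that the filter needed. UGT71C3 entered the fit largely through the lines in which it was high, which limits what its adjusted p can show.

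UGT genes were called in both directions at day 7. From day 0 to day 7, 7 of the 23 were higher and 8 lower in FRI flc-3, against 21.3% and 19.7% of all probe sets. In flc-3, 4 were higher and 8 lower, against 25.3% and 20.9%. UGT71B1 rose in all 3 lines, by 0.75 in FRI (adjusted p = 4.8e-09), by 1.32 in FRI flc-3 (adjusted p = 9.1e-16) and by 1.18 in flc-3 (adjusted p = 1.9e-14). UGT76E11 fell by 1.45 in FRI (adjusted p = 5.4e-05), fell by 1.49 in FRI flc-3 (adjusted p = 1.6e-05) and fell by 1.60 in flc-3 (adjusted p = 4.6e-06), with −0.70, −0.73 and −0.85 at an offset of 16. None of the 23 was called between FRI flc-3 and flc-3 for the mean over days, where 4.24% of all probe sets were called (1.94% as higher, 2.29% as lower) and 6 of the 23 had an unadjusted p under 0.05.

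Over these lists together, 29 genes were tested beside UGT84A1. Of them 12 differed between FRI and FRI flc-3, against 21.2% of all probe sets. Between FRI flc-3 and flc-3 2 differed (DFR with −0.21 and UF3GT with −0.21), against 4.24%. In the day 7 response between FRI and FRI flc-3 12 differed, against 12.7%. None was called for the response between FRI flc-3 and flc-3, where 2.84% of all probe sets were called (1.37% with a positive, 1.47% with a negative difference). In that comparison 5 of the 29 had an unadjusted p under 0.05, and DFR had an adjusted p of 0.053.

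**Figure D4:**
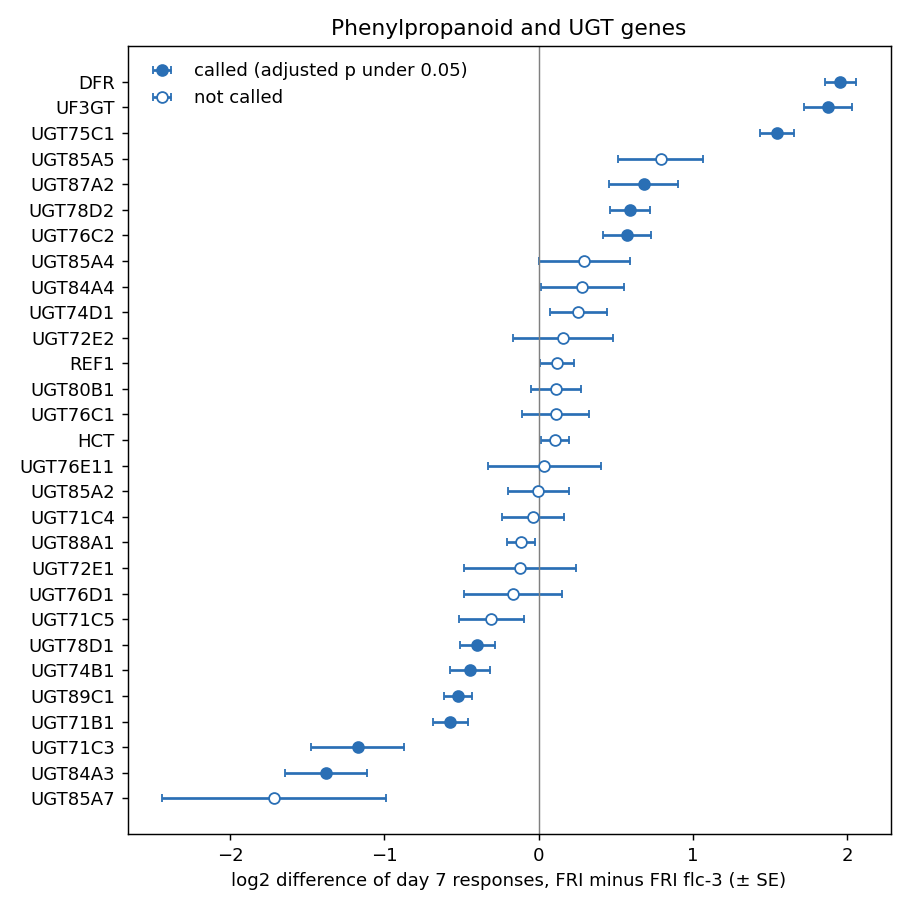
Difference of the day 7 responses, FRI minus FRI flc-3 (log2 scale), for the 29 tested phenylpropanoid and UGT genes other than UGT84A1, with bars for the SE and filled symbols at an adjusted p under 0.05. DFR, UF3GT and UGT75C1 have 1.96, 1.88 and 1.55, and UGT84A3 and UGT71C3 have −1.38 and −1.17, the sign that UGT84A1 has with −3.04.

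Loci whose pattern was most like that of UGT84A1 were ranked by the Pearson correlation of log2 signals over the 36 arrays, among 8040 named loci that passed the filter. The arrays of a group share their line and day, and the values are a description. The median r was 0.05, with 23 loci above 0.9 and 15 below −0.9. The 8 highest were AT3G06160 with 0.95, scpl25 with 0.94, AT1G70780 with 0.94, AT1G75170 with 0.93, AT1G78150 with 0.93, AT5G03610 with 0.93, CYP71B22 with 0.93 and AT1G26690 with 0.92. The probe set of AT1G75170 carries the suffix of sets that can bind several transcripts. UGT84A3 was at place 233 of the 8040.

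AT3G06160 had mean signals of 22 at day 0 and 32.3 at day 7 in FRI, 23.6 and 91.2 for FRI flc-3, and 18.3 and 102.5 for flc-3. The serine carboxypeptidase-like gene scpl25 had 374.8 and 439.8 in FRI, 407 and 686 for FRI flc-3, and 353.9 and 771.2 for flc-3. CYP71B22, a cytochrome P450 gene, had 14.4 and 28.8 in FRI, 21 and 191.8 for FRI flc-3, and 14.6 and 163.8 for flc-3. As with UGT84A1, the day 7 means of these 3 loci were higher in both lines with flc-3 than in FRI. This follows from their choice by correlation with UGT84A1 over the same arrays and is no separate finding.

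The 4 lowest correlations with UGT84A1 were those of scpl35 with −0.93, AT3G57780 with −0.93, AT2G34700 with −0.93 and BGLU44 with −0.92. The gene scpl35, of the serine carboxypeptidase-like family, had mean signals of 486.5 at day 0 and 444.1 at day 7 in FRI, 469.3 and 174.1 for FRI flc-3, and 504 and 131.7 for flc-3. Of the 8 loci most like UGT84A1, 5 were also among the highest 8 by Spearman correlation, 5 by correlation over the 12 group means and 4 with an offset of 16.

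**Figure D5:**
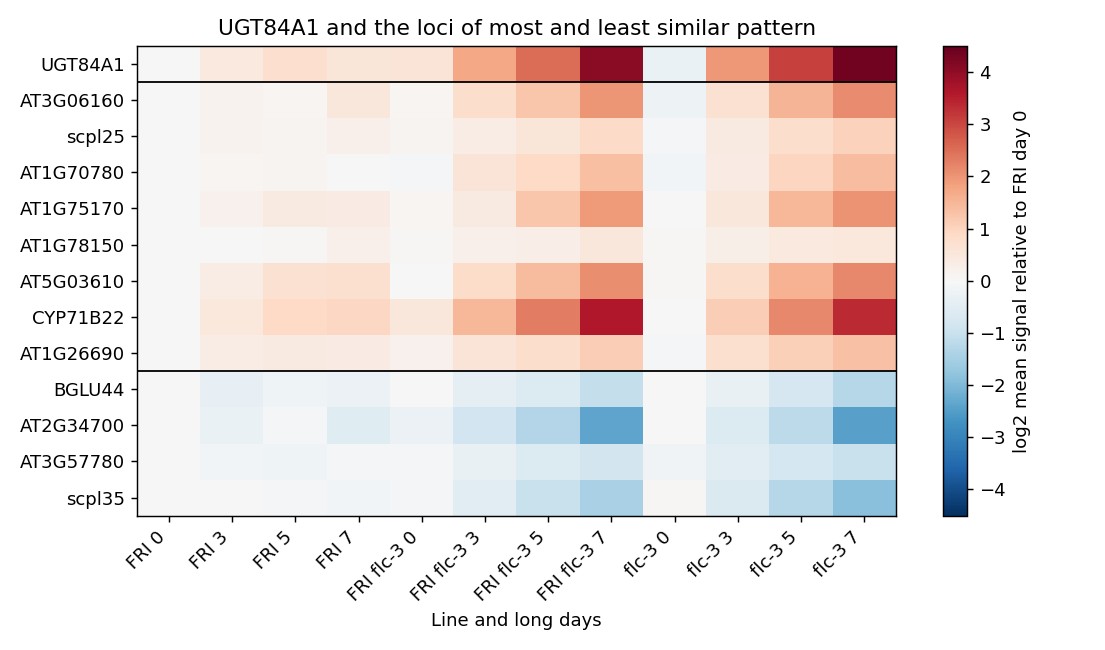
Mean signal of each group relative to FRI at day 0, on the log2 scale with the offset of 1.62, for UGT84A1, the 8 loci of highest and the 4 of lowest correlation with it. Columns are the 3 lines at 0, 3, 5 and 7 long days, red is higher and blue lower. The 8 loci of highest correlation are higher at day 7 than at day 0 and the 4 of lowest are lower, in FRI flc-3 and flc-3. The loci were picked by this correlation, so the shared pattern follows from the choice.

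Markers of tissues in the sample were set beside UGT84A1. Of 11 markers of floral meristems and organs 1 was measured, UFO, an F-box gene of floral meristems. Its mean signals lay between 1.40 and 2.82 in FRI and were 2.52, 7.71, 7.51 and 15.8 for FRI flc-3, and 1.34, 4.91, 12.2 and 24.7 for flc-3 at days 0, 3, 5 and 7. UFO exceeded the filter level on the 3 flc-3 arrays of day 7 alone, the group in which it was highest, so no test of it is given. At day 7 its arrays had 1.21 to 4.57 in FRI, against 13.0 to 20.3 for FRI flc-3 and 24.1 to 25.6 for flc-3, so that UFO, like UGT84A1, had every array of the lines with flc-3 above every FRI array, and its part in the result was not tested.

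Of 12 shoot apex markers 2 were measured, CLV3 and LAS, and their summed signal lay between 31.9 and 60.6 on the 36 arrays. CLV3 was not tested because it was dim, with means of 8.39 to 16.3 in the 12 groups, and LAS was called in no comparison. Of 10 markers of mature leaves 4 were measured, RCA, PRK, LHCB4.1 and SBPASE, and all 4 were lower at day 7 than at day 0 in each line, against 12.1%, 19.7% and 20.9% of all probe sets in FRI, FRI flc-3 and flc-3. Their summed signal at day 7 was 3606 to 4000 in FRI, 2991 to 3403 in FRI flc-3 and 3228 to 3253 in flc-3. Over the 4 days PRK was higher in FRI than in FRI flc-3 by 0.12 (adjusted p = 0.022) and LHCB4.1 by 0.14 (adjusted p = 0.039). None of these leaf markers had a response called different between FRI and FRI flc-3. In that contrast 12.7% of all probe sets were called, 6.41% with a positive and 6.28% with a negative difference. With 4 markers, none called is near that share. Their part in the levels of UGT84A1 was not tested.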

How the data were processed

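The deposited values were probe set intensities, MAS5 signals that the authors made, on a linear scale, per the submitters' processing notes. The MAS5 version and scaling target are not given in the sources used here. The 2%-trimmed mean was 100.007 to 100.009 on all 36 arrays, so no further scaling was applied. Signals were transformed as log2(signal + 1.62), the offset being the 10th percentile over the whole table. From its 22810 probe sets, 64 controls were left out, and 14912 that exceeded their array's 40th percentile on at least 3 arrays were tested. limma 3.58.1 in R 4.3.3 was fitted with 1 mean per group, leaving 24 residual degrees of freedom, and its eBayes step allowed a trend with intensity. Tests were two-sided, p-values were adjusted by Benjamini-Hochberg over the 14912 probe sets, and the call was made under 0.05. Tables and figures used Python 3.11.15, pandas 2.3.3 and matplotlib 3.10.9.

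GEO's platform annotation names 14016 probe sets, 13513 with 1 gene, 503 with several. Of the former, 13436 matched a RefSeq TAIR10.1 locus, and 8730 probe sets other than controls are unnamed. The probe set of highest mean signal stood for a locus, which left 8041 tested loci.

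Named genes were UGT84A1, every tested sinapate list and UGT84 gene, up to 4 genes of smallest adjusted p per comparison of the other lists and of UGT symbols, tested neighbours among 10 gene models on each side, the 8 loci of highest and 4 of lowest correlation, and measured markers. The gene, the lists and the rule were chosen with earlier results of these data known.

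Alternatives were offsets of 4 and 16, quantile normalization, a 75th percentile common to all arrays, testing every probe set, a stricter filter (60th percentile), the replicate number as a block and leaving out each array. Of 198 pairs of arrays of the same number in different groups, 13 had deviations from the group means that correlated above 0.1, with a median of −0.002, so the numbers were not taken to pair the samples, although UGT84A1 itself was highest in replicate 3 on every day in FRI and FRI flc-3. The fit was tested on simulated data.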

Additional observations from a re-analysis of the deposited data

Results flagged for a closer look

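The response from day 0 to day 7 differed between FRI and FRI flc-3 by a direct test of the difference for 11 of the named genes other than UGT84A1. The differences, FRI minus FRI flc-3 on the log2 scale, were −1.38 for UGT84A3, −1.17 for UGT71C3, −0.57 for UGT71B1, −0.52 for UGT89C1, −0.45 for UGT74B1 and −0.40 for UGT78D1, all of the sign of UGT84A1. They were 1.96 for DFR, 1.88 for UF3GT, 1.55 for UGT75C1, 0.59 for UGT78D2 and 0.57 for UGT76C2, the opposite sign. Of these 11 genes, UGT84A3 entered the fit only through the groups in which it was high, as given above. UGT71C3 entered it largely through the lines with flc-3, since its FRI arrays alone fell short of the filter. For the remaining genes the arrays above the filter level are not given here. The calls of 3 of the 11 genes rested on single arrays. UGT78D1 was no longer called when FRI replicate 3 of day 0 (adjusted p = 0.059) or FRI flc-3 replicate 2 of day 0 (adjusted p = 0.065) was left out, UGT74B1 without FRI replicate 2 of day 0 or day 7, FRI flc-3 replicate 2 of day 0 or FRI flc-3 replicate 1 of day 7 (adjusted p of 0.056 to 0.075) and UGT76C2 without replicate 3 of FRI flc-3 at day 7 (adjusted p = 0.057).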

How the results depend on the processing

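The size of the UGT84A1 differences depended on the offset, since its FRI and day 0 signals were dim, and the signs did not. With an offset of 16 the difference between FRI and FRI flc-3 was −0.79, the day 7 change 1.83 in FRI flc-3, with 2.24 in flc-3, and the responses differed by −1.71 between FRI and FRI flc-3 and by −0.41 between FRI flc-3 and flc-3. With an offset of 4 the day 7 changes were 2.99 in FRI flc-3, with 3.76 in flc-3. Leaving out each array in turn gave −1.995 to −1.74 for FRI against FRI flc-3, −0.17 to 0.02 for FRI flc-3 against flc-3, and day 7 changes of 0.13 to 0.82 in FRI, 3.14 to 3.88 in FRI flc-3 and 4.53 to 4.77 in flc-3. The responses then differed by −3.42 to −2.62 and by −1.48 to −0.74. With the replicate number as a block the UGT84A1 differences could not change, because each group holds the same replicate numbers. That setting is therefore no check of their size.

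Of the 29 phenylpropanoid and UGT genes, leaving out an array gave 11 to 13 calls for FRI against FRI flc-3 and 1 to 3 for FRI flc-3 against flc-3. For day 7 it gave 5 to 8 calls in FRI, 14 to 20 in FRI flc-3 and 14 to 17 in flc-3. For the responses it gave 9 to 13 and 0 to 1. The filter at the 60th percentile left 16 of the genes, with 4, 12 and 10 calls at day 7 in FRI, FRI flc-3 and flc-3 against 7, 20 and 16. The response between FRI flc-3 and flc-3 had 1 call in place of 0, that of DFR, with offsets of 4 and 16, quantile normalization, a common 75th percentile, the 60th percentile filter and the replicate block (adjusted p = 0.044 with the block). The arrays number 3 per group, and signals near the bottom of the scale limit what can be said of UGT84A1 in FRI and at day 0.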
